A study of Rattus norvegicus with 10 samples.

Results

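The interferon-stimulated genes are the set of genes that cells switch on when interferon reaches them. They were chosen by name, as a list of 38 genes. Of these, 34 had a probe with a matching gene name and all 34 passed the filter on dim probes, among 14711 genes tested of 15168 named. Ddx58, Herc6, Samhd1 and Xaf1 were not matched to a probe by their RefSeq accessions and were not analysed here.

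Transcripts were profiled in glands of male rats, all 14 weeks old; the submandibular gland makes much of the saliva. The 5 SHR rats come from the spontaneously hypertensive strain, an inbred line that develops high blood pressure, and the 5 WKY rats (Wistar-Kyoto) from its normotensive control strain. No treatment and no allele other than strain is labelled, and each rat had 1 one-colour Agilent array. The strains differ at many loci, so a difference between them belongs to strain as a whole, and high blood pressure and genetic background cannot be told apart.

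Interferons are secreted proteins that alert cells to infection. Type I interferons signal through a receptor pair and the kinases Jak1 and Tyk2 to a complex that contains Stat2 and Irf9 and binds the interferon-stimulated response element (ISRE) in promoters. Interferon gamma has its own receptor, and its signal ends at the gamma-activated site (GAS) of promoters. The induced genes include sensors of foreign RNA, enzymes that degrade or block viral RNA, and regulators that amplify or end the response. Many of them also have a resting level in healthy tissue.

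Values are log2 processed intensities after subtraction of each array's 75th percentile, so 0 is that percentile. A difference is the SHR mean minus the WKY mean in a limma fit over all genes tested, given with its SE, and it is called at a Benjamini-Hochberg adjusted p below 0.05. Levels of different genes are not compared, because each probe has its own response. In bulk tissue, fewer cells of a type and less RNA per cell cannot be told apart. Between 94.8% and 97.7% of the 42877 spots of an array exceeded background clearly, and 0 spots were saturated. The 75th percentile intensity ran from 333 to 648, with SHR 3-3 lowest, and that array also had the lowest mean correlation with its own strain (0.975).

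Arrays with the same scan time in the file headers are called a slide here, which is inferred and not labelled. By scan time, slide 1 held SHR 2-3, 3-1, 3-3 and 3-4, slide 2 held SHR 2-1 with WKY 1-5, 4-1 and 4-2, and slide 3 held WKY 1-2 and 1-3. Only slide 2 held both strains. Strain and slide are therefore largely confounded, and a fit with the slide as a block rests on 1 SHR array against 3 WKY arrays.

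The ISRE was looked for in the promoters first, because the type I interferon signal described above acts through it. RefSeq promoter windows of assembly GRCr8, from 250 bases before to 50 after the start site, were held for 26 of the 34 members. The core GAAANNGAA, searched on both strands, was found in 18 of the 26 (69.2%), against 9.71% of all 33469 windows and 8.17% of the 12519 windows of genes tested. It was present in 8 of 9 members that were lower in SHR, Mx1 being without it, and in 10 of 17 that did not pass the threshold. The sites below, with 10 bases on each side and the core in capitals, are shown, 1 for each gene, for the 8 lower members with a core and for Oas1b, a close relative of Oas1a that was not. Ifi27, Ifi44, Ifi44l, Oas1a and Oas1b each have a second core that is not shown. The sites are written on the strand of the gene, so TTC at the left marks a core on the opposite strand.
Irf7, chr1:205800073-205800101, minus strand: cagtttaggtTTCATTTTCccgagacgca
Rsad2, chr6:48788248-48788276, minus strand: tggttcaactTTCATTTTCagaaaacaga
Ifi27, chr6:128355218-128355246, plus strand: gagagctgggGAAATGGAAacttacctca
Gbp2, chr2:234005687-234005715, plus strand: gttttttagtTTCACTTTCattgtcttaa
Ifi44, chr2:243303847-243303875, minus strand: cacactgagtTTCAGTTTCatttcccagg
Ifi44l, chr2:243328654-243328682, plus strand: ttccagtgagGAAAATGAAagtaaagggc
Oasl2, chr12:47383317-47383345, minus strand: aagctttggtTTCAGTTTCcaggcttgag
Oas1a, chr12:41330421-41330449, plus strand: tcgggaaatgGAAACTGAAaatcttgttc
Oas1b, chr12:41395887-41395915, minus strand: ccgggaaatgGAAACTGAAaaccctattt

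The capitals of Oas1a and Oas1b are the same letters, while the 2 genes had differences of −0.90 and 0.15. The GAS pattern TTCNNNGAA, which reads the same on both strands, was in 7 of the 26 member windows (26.9%) and in 8.87% of all windows. A match describes letters in the window and is not evidence of binding.

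**Figure D1:**
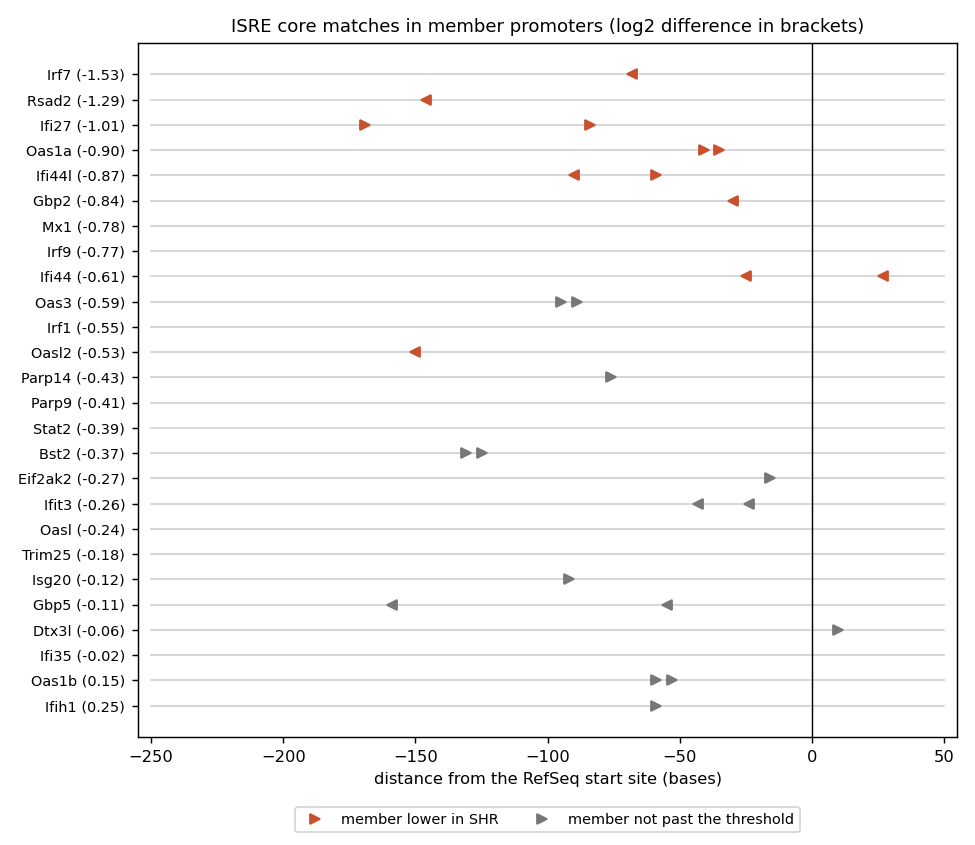
Positions of ISRE core matches in the promoter windows of 26 members, as the distance in bases of the leftmost base of each match from the RefSeq start site. Each row is a gene ordered by its log2 difference (SHR minus WKY, in brackets), arrowheads point right for a core on the gene's strand and left for the opposite strand, and orange marks members lower in SHR; a match is present in 8 of 9 members lower in SHR and in 10 of 17 others.

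Of the 34 interferon-stimulated genes, 12 were lower in SHR glands than in WKY glands, 0 were higher and 22 did not pass the threshold. Over all genes tested, 2.85% were called lower and 1.51% higher by the same limma fit. At an unadjusted p below 0.05, 23 members were lower and 0 higher, against 1806 lower and 1184 higher of the 14711 genes. The difference was negative in 29 members (85.3%), against 53.4% of all genes. Its median was −0.42, against −0.02 over all genes. In 14 members, the 12 called ones with Dhx58 and Trim25, the highest SHR array lay below the lowest WKY array; over all genes 4.11% had this pattern and 3.14% the opposite, which 0 members had.

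Within slide 2, SHR 2-1 was below all 3 WKY arrays in 24 of 34 members (70.6%), against 22.5% of all genes. It was above all 3 in 2 members, against 31.5% of all genes. These counts describe 1 SHR rat, and its members are not replicates, so they are no test of the strain difference. With the slide as a block 0 members passed, with 6 lower at an unadjusted p below 0.05, and 32 of all 14711 genes were called lower there. This setting ended the call of each of the 12 members. The count of lower members was 7 without WKY 1-3, where all genes called lower also fell, from 419 to 218. It was 12 without SHR 3-3, with 488 of all genes lower.

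**Figure D2:**
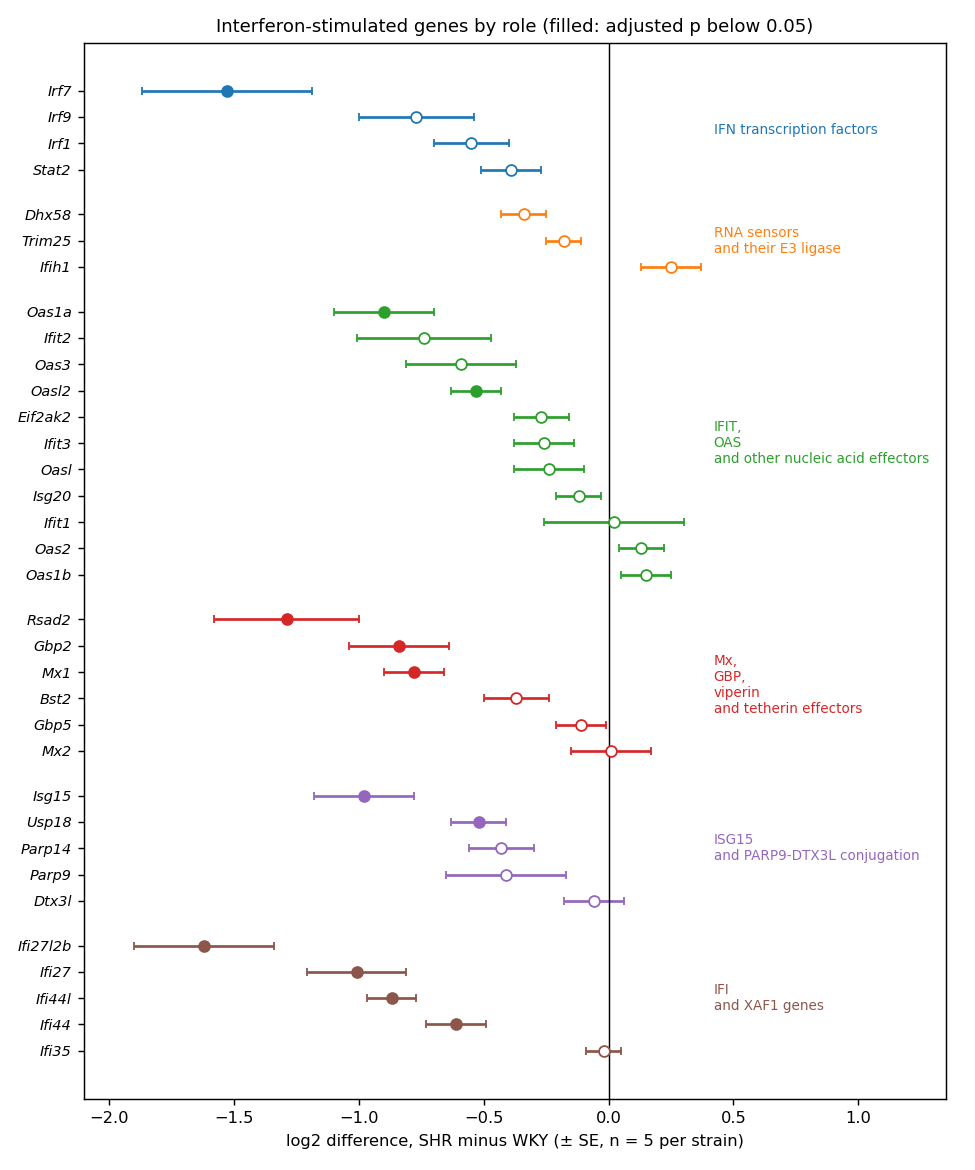
Log2 difference (SHR minus WKY, horizontal axis) of the 34 members with its SE, n = 5 arrays per strain, grouped and coloured by role. Filled points passed an adjusted p of 0.05 and open points did not; the 12 filled points all lie below 0, from −1.62 to −0.52.

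Among the transcription factors that carry the signal, 1 of 4 members was lower and all 4 differences were negative (median −0.66). Irf7 is the master regulator of type I interferon production and is itself induced by interferon. In the order SHR 2-1, 2-3, 3-1, 3-3 and 3-4, used for every gene below, Irf7 measured 0.40, 0.26, 0.67, −1.47 and 0.40, and in the order WKY 1-2, 1-3, 1-5, 4-1 and 4-2 it measured 1.22, 1.53, 1.41, 1.84 and 1.91. All SHR arrays lay below all WKY arrays, and SHR 3-3 was far below the other SHR arrays. The difference was −1.53 ± 0.34, a 2.89-fold lower level (limma adjusted p = 0.0243). It was not past the threshold without WKY 1-3, 4-1 or 4-2 (adjusted p up to 0.0627).

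Irf9, the DNA-binding subunit of the interferon complex, differed by −0.77 ± 0.23 (adjusted p = 0.0779), and its strains overlapped. Irf1, which drives part of the interferon gamma response, differed by −0.55 ± 0.15 (adjusted p = 0.0577), and Stat2 by −0.39 ± 0.12 (0.0876). These 3 genes were each lower on 4 of 5 SHR arrays than on any WKY array. Irf9 passed without SHR 2-1 (adjusted p = 0.0227) and turned to 0.20 within slide 2; Irf1 passed without SHR 3-4 (0.0117). The second probe of Irf1 gave −0.13 (adjusted p = 0.644 over 29266 probes), so its probes disagreed.

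The sensors of viral RNA did not pass the threshold. Dhx58, which modulates RNA sensing, differed by −0.34 ± 0.09 (adjusted p = 0.0598) and passed without SHR 3-4 (0.0418). Trim25, a ubiquitin ligase that supports sensing, differed by −0.18 ± 0.07 (0.169). In both genes the strains did not overlap. Ifih1, the sensor MDA5 of long double-stranded RNA, had the opposite sign, 0.25 ± 0.12 (adjusted p = 0.274), with SHR arrays from −2.99 to −2.36 and WKY arrays from −3.08 to −2.67.

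The effectors that act on foreign RNA were divided. Of 11 members, 2 were lower and 9 did not pass, with a median of −0.26. The Oas genes encode sensors of double-stranded RNA that activate RNase L through short oligoadenylates. Oas1a measured −3.14, −3.40, −2.99, −4.19 and −3.16 in SHR and −2.67, −2.44, −2.67, −2.29 and −2.31 in WKY. The strains did not overlap and SHR 3-3 was lowest; the difference was −0.90 ± 0.20 (adjusted p = 0.0241), not past the threshold without SHR 2-3 or WKY 1-3, 4-1 or 4-2 (up to 0.0654). Oasl2, an Oas-like gene, measured −2.12, −2.15, −2.21, −2.51 and −2.25 in SHR and −1.75, −1.66, −1.78, −1.89 and −1.53 in WKY. Its 5 SHR arrays lay close together below the WKY arrays, a difference of −0.53 ± 0.10 (adjusted p = 0.0109).

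Other members of this group differed by less or varied more. Oas3 differed by −0.59 ± 0.22 (adjusted p = 0.150; 0.0291 without WKY 4-2), Oasl by −0.24 (0.373), Oas1b by 0.15 (0.415) and Oas2 by 0.13 (0.424). The Ifit genes bind viral RNA that lacks host cap marks. Ifit2 differed by −0.74 ± 0.27 (adjusted p = 0.152) and Ifit3 by −0.26 ± 0.12 (0.240). Ifit1 was well above background on only 3 of 5 arrays in each strain and differed by 0.02 ± 0.28, a value whose sign turned under several settings. Eif2ak2, the kinase PKR that halts translation, differed by −0.27 (0.171) with the probe used and by −0.45 (adjusted p = 0.0410 over all probes) with its second probe. Isg20, an RNA exonuclease, differed by −0.12 (0.494).

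Of the antiviral GTPases, viperin and tetherin, 3 of 6 were lower and the median was −0.57. Mx1, a GTPase that traps viral nucleocapsids, measured 0.78, 0.83, 0.71, 0.55 and 0.58 in SHR and 1.27, 1.53, 1.25, 1.87 and 1.42 in WKY. The SHR arrays spanned a narrow range under the WKY arrays, and the difference was −0.78 ± 0.12 (adjusted p = 0.00314). Rsad2 encodes viperin, an enzyme that makes a chain-terminating nucleotide. It measured −2.39, −2.30, −2.27, −3.78 and −2.75 in SHR and −1.19, −1.49, −2.13, −1.0 and −1.25 in WKY, with SHR 3-3 lowest and WKY 1-5 nearest to SHR. Its difference of −1.29 ± 0.29 (2.44-fold lower, adjusted p = 0.0261) did not pass without SHR 3-4 or WKY 1-2, 1-3, 4-1 or 4-2 (up to 0.0709).

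Gbp2, a guanylate-binding protein induced mainly by interferon gamma, measured −1.28, −1.15, −1.65, −2.19 and −1.56 in SHR and −1.12, −0.75, −0.86, −0.24 and −0.69 in WKY. SHR 2-3 and WKY 1-2 nearly touched. The difference was −0.84 ± 0.20 (adjusted p = 0.0337) and did not pass without SHR 3-1 or 3-4 or without WKY 1-3, 1-5, 4-1 or 4-2 (up to 0.0815). Bst2, which encodes tetherin and is also a plasmacytoid dendritic cell marker, differed by −0.37 ± 0.13 (0.138; 0.0302 without WKY 1-2). Gbp5 differed by −0.11 (0.579), with a second probe at −0.36 (limma adjusted p = 0.148 over all probes). Mx2 differed by 0.01 ± 0.16 (0.980). In Mx2 the SHR arrays spread from 3.83 to 4.86 and the WKY arrays only from 4.14 to 4.26.

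In the group of Isg15 and the ubiquitin-like and ADP-ribose modifiers, 2 of 5 members were lower and all 5 differences were negative (median −0.43). Isg15 is a ubiquitin-like protein that is attached to many targets during the response. It measured −1.31, −1.43, −1.47, −2.42 and −1.61 in SHR and −0.94, −0.74, −0.85, −0.35 and −0.44 in WKY. The strains did not overlap, with SHR 3-3 apart from the other SHR arrays, and the difference was −0.98 ± 0.20 (adjusted p = 0.0153).

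Usp18, the protease that removes Isg15 and dampens the type I receptor, measured −1.54, −1.52, −1.68, −1.61 and −1.74 in SHR and −1.24, −1.03, −1.32, −1.12 and −0.77 in WKY. SHR 3-3 lay among the other SHR arrays here. The difference was −0.52 ± 0.11 (adjusted p = 0.0167; 0.0528 without WKY 1-3), and a second probe gave −0.95 (0.00859 over all probes). Parp14, an ADP-ribosyltransferase, differed by −0.43 ± 0.13 (0.0879), with a second probe at −0.12. Parp9 and its partner ligase Dtx3l differed by −0.41 ± 0.24 (0.368) and −0.06 ± 0.12 (0.837).

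Of the Ifi genes, named for induction by interferon, 4 of 5 were lower and the median was −0.87. Ifi27l2b, of the Ifi27 family of small membrane proteins, measured 1.72, 1.26, 1.48, 0.13 and 1.75 in SHR and 2.62, 2.89, 2.50, 3.18 and 3.26 in WKY. Every SHR array lay well below every WKY array. The difference was −1.62 ± 0.28, a 3.07-fold lower level (adjusted p = 0.00614), and a second probe gave −1.50 (0.0139 over all probes). Ifi27 itself measured 4.89, 4.67, 4.91, 3.77 and 5.12 in SHR and 5.56, 5.71, 5.77, 5.67 and 5.71 in WKY. The WKY arrays were nearly equal and the SHR arrays spread below them, a difference of −1.01 ± 0.20 (adjusted p = 0.0156).

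Ifi44l measured −3.70, −3.59, −3.66, −3.78 and −3.43 in SHR and −2.81, −2.73, −3.02, −2.66 and −2.58 in WKY. It had the smallest adjusted p of the members, 4.0e-04, at a difference of −0.87 ± 0.10, and SHR 3-3 was close to its strain. Ifi44 measured −0.12, −0.07, 0.04, −0.38 and −0.01 in SHR and 0.28, 0.75, 0.31, 0.66 and 0.50 in WKY. Its strains were separate at −0.61 ± 0.12 (adjusted p = 0.0114). Ifi35, which binds other interferon-induced factors, differed by −0.02 ± 0.07 (0.890). Leaving out any 1 array kept Ifi44l, Mx1, Ifi27l2b, Oasl2, Ifi44, Isg15 and Ifi27 past the threshold (highest adjusted p = 0.0455).

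**Figure D3:**
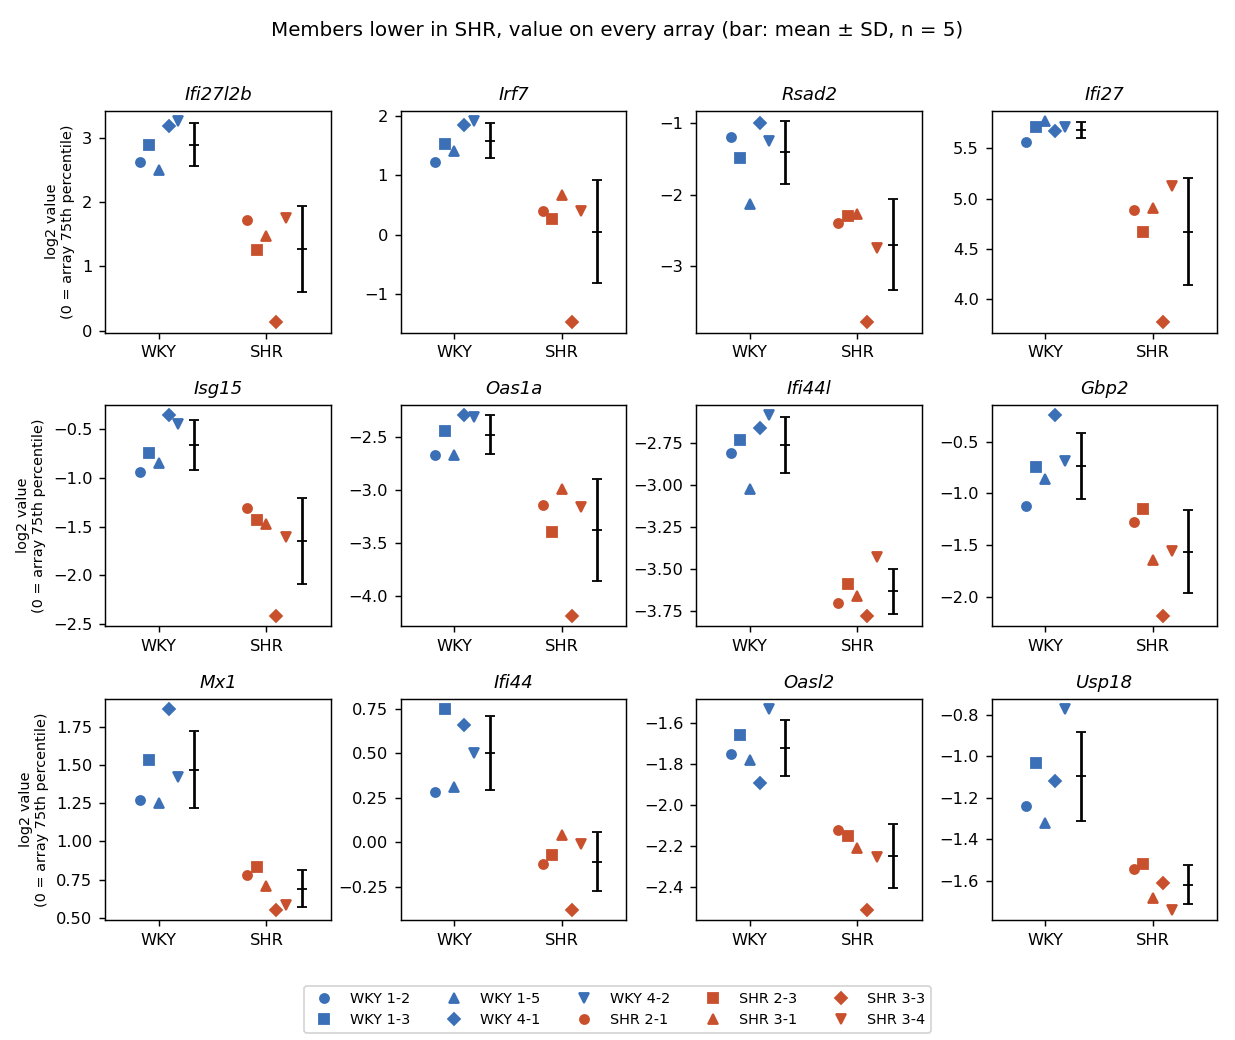
Value of each of the 12 members lower in SHR on every array (vertical axis, log2 relative to the array's 75th percentile), blue for WKY and orange for SHR, with 1 symbol per rat and the mean ± SD (n = 5) at the side of each strain. In all 12 panels the highest SHR point lies below the lowest WKY point, and SHR 3-3 (orange diamond) is the lowest SHR point in all but Usp18.

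Set against the WKY mean, the median over the 34 members was −0.39 on SHR 2-1, −0.39 on 2-3, −0.47 on 3-1, −0.64 on 3-3 and −0.22 on 3-4. On the WKY arrays it ran from −0.17 to 0.11, and over all genes it ran from −0.12 to 0.07 across the 10 arrays. SHR 3-3 was the lowest of the 10 arrays in 19 of 34 members, and it was also low in duct markers, with Egf at 0.73. The highest array was WKY 4-1 in 11 members and WKY 4-2 in 11 others.

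**Figure D4:**
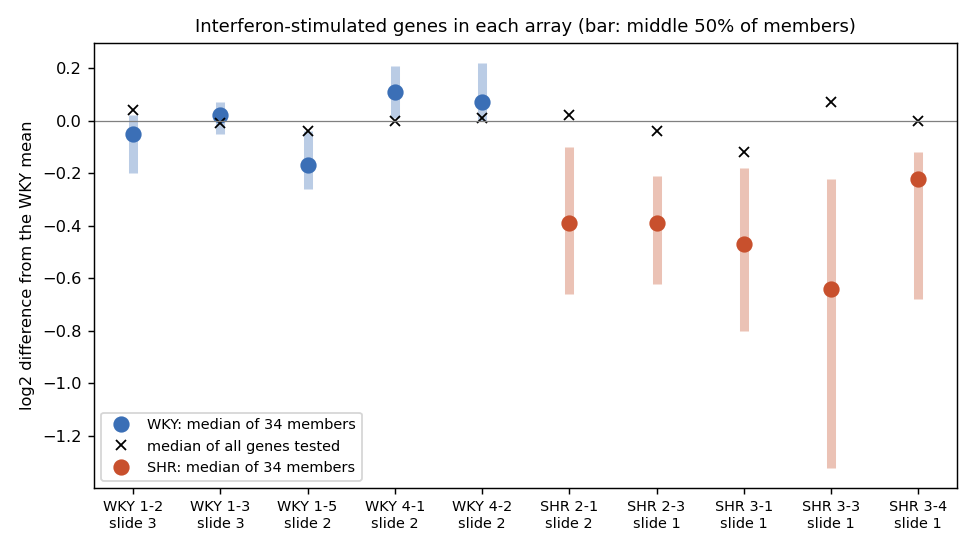
Median log2 difference from the WKY mean of the 34 members on each array (circles, blue WKY, orange SHR), with a bar for the middle 50% of members and a cross for the median of all genes tested. The 5 SHR circles lie between −0.64 and −0.22 and the WKY circles between −0.17 and 0.11. The slide of each array, inferred from scan time, is written under its name.

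Several members lie close together in the genome, with 0 to 2 protein-coding genes between them, and neighbours did not always move alike. Most of these neighbours are related copies, but Dtx3l is not a copy of Parp9 or Parp14. The difference between the changes of 2 neighbours was tested for 12 pairs with a two-sided exact permutation test over the 252 arrangements of arrays, which can give no p below 0.00794; this test was added after the data were seen. Oas1a fell by 1.06 more than Oas1b on the log2 scale (SE 0.30, exact p = 0.00794, adjusted over 12 pairs 0.0408). Mx1 fell by 0.79 more than Mx2 (SE 0.25, exact p = 0.00794, adjusted 0.0408). In both pairs the within-array differences of the strains did not overlap. Gbp2 differed from Gbp5 by 0.72 (SE 0.21, exact p = 0.0159, adjusted 0.0408), with Gbp2 the lower. The second probe of Gbp5, at −0.36, lay nearer to Gbp2 and was not used in this test.

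Of the 12 pairs 8 passed 0.05 after adjustment and 9 before it. Ifit2 and Ifit3 (exact permutation adjusted p = 0.0635), Ifit3 and Ifit1 (0.413), Parp9 and Dtx3l (0.312), and Oasl and Oasl2 (0.200) did not. Without SHR 3-3 or without WKY 4-1, 0 pairs passed (smallest adjusted p = 0.0635 in each case), while 8 and 7 were below 0.05 by the unadjusted exact test. Near-identical copies can share probe signal, and how far a probe of one gene also reads its neighbour was not tested.

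**Figure D5:**
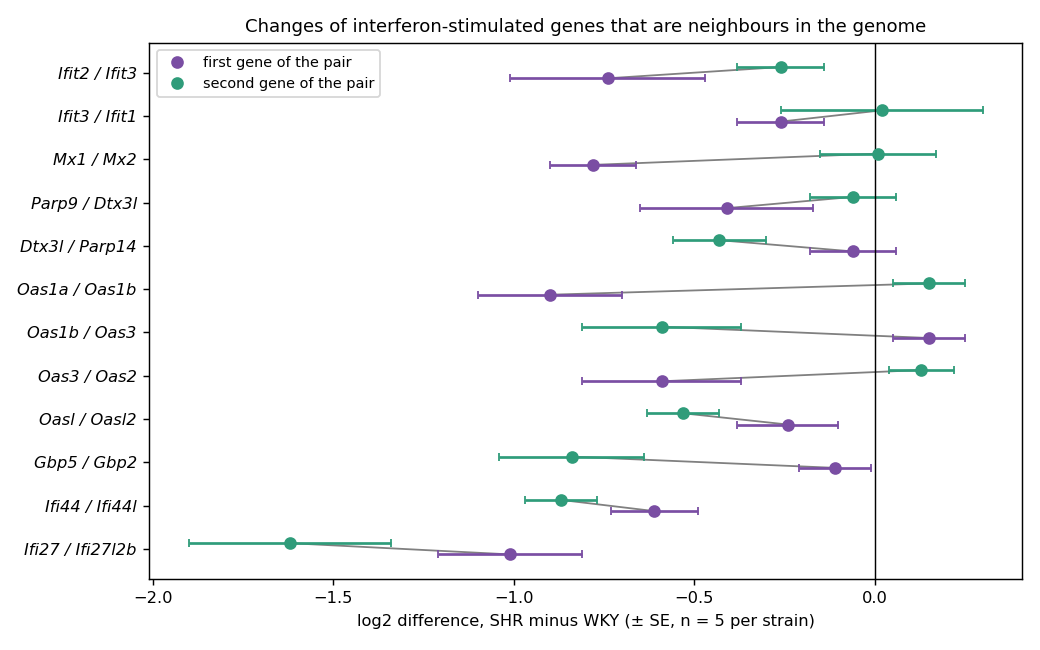
Log2 differences (SHR minus WKY, with SE, n = 5 per strain) of the 12 neighbouring pairs, the first gene of each pair in purple and the second in green, joined by a line. The widest gaps are Oas1a (−0.90) against Oas1b (0.15) and Mx1 (−0.78) against Mx2 (0.01).

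Upstream of the members, the interferon genes themselves were scarcely measured. The counts of each list below stand beside 2.85% of all genes called lower and 1.51% called higher. Of the genes outside the list that are named from here on as called, only Socs3 (−2.11, limma adjusted p = 0.00167) and Smgc (−4.38, 0.00769) still passed with the slide as a block. Of 12 listed ligands 5 were tested and 1 was lower: Ifnk, an interferon of epithelia, at −0.56 ± 0.13 (adjusted p = 0.0290). Its probe exceeded background clearly on every WKY array but on only 1 of 5 SHR arrays, and it did not pass without SHR 2-3 or 3-4 or without WKY 1-2, 1-3, 1-5 or 4-1 (up to 0.0784). It also failed with quantile scaling (0.0733), the authors' values (0.0705), trended robust variances (0.0650) and normexp, where it was only −0.10 (0.371). Ifnb1 differed by −0.02 (0.957).

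All 10 receptor, kinase and STAT genes tested had negative differences (median −0.20), against 53.4% of all genes. Of them 3 were lower, of which 2 are given here. Ifngr2, a chain of the interferon gamma receptor, differed by −0.48 ± 0.09 (0.00798). Il10rb, shared by interferon lambda and interleukin 10 receptors, differed by −0.51 ± 0.13 (0.0456) and did not pass with any array but SHR 2-1 left out (up to 0.109). It also failed with no filter on dim probes (0.0508), array weights (0.0527) and the percentile over probes (0.0505), and was −0.18 with the slide as a block.

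Of 12 genes of nucleic acid sensing and interferon induction, 2 were lower, 1 was higher and the median was −0.07. Traf6, a ubiquitin ligase of Toll-like receptor signalling, and Irf5, a factor that induces inflammatory cytokines, differed by −0.62 each (adjusted p = 0.00563 and 0.00583). Tlr3, the endosomal receptor for double-stranded RNA, was higher by 0.96 ± 0.20 (0.0184; 0.0543 without WKY 1-2). Among 12 brakes on the pathway 1 was lower and the median was 0.05. That gene was Socs3, an inhibitor of cytokine receptors, at −2.57 ± 0.20 (9.9e-06), while Socs1, the main inhibitor of interferon receptors, differed by 0.21 (0.312).

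Other genes known to be induced by interferon gave 8 lower and 1 higher of 38 tested, with a median of −0.31. Over all genes tested, 2.85% were called lower and 1.51% higher. Rtp4 differed by −1.16 (adjusted p = 0.0103), Slfn4 by −0.99 (0.0454), Lgals9, a galectin, by −0.91 (0.00207), Phf11 by −0.79 (0.00139). The immunoproteasome subunits Psmb10 and Psmb8 differed by −0.74 (2.7e-04) and −0.61 (0.0214), and Psmb8 did not pass without SHR 3-4 or WKY 1-2, 1-3 or 4-1 (up to 0.0602). Ifitm2, which hinders viral entry, was the only gene of this list called higher, by 0.52 (0.0114). At an unadjusted p below 0.05 in limma, 21 of the 38 were lower and 4 higher, against 1806 and 1184 of all 14711 genes. Slfn4 did not pass without SHR 3-4 or without any 1 WKY array (up to 0.108), nor with quantile or median scaling, the authors' values, no filter on dim probes, trended robust variances or the percentile over probes (0.0514 to 0.0599).

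Markers of other cell types were read beside these results. Of 18 macrophage and dendritic cell markers 3 were lower and the median was −0.43: Fcer1g by −1.18, Cd68 by −0.97 and Aif1 by −0.81 (limma adjusted p = 0.00710, 0.00668 and 0.0293). With the slide as a block these were −0.91, −0.77 and −0.55 and none passed (Fcer1g 0.968, Cd68 0.926). Aif1 did not pass without SHR 2-3 or 3-1 or without WKY 1-3, 4-1 or 4-2 (up to 0.0851). Of the 18 markers, 16 (88.9%) had a negative difference, against 53.4% of all genes. At an unadjusted p below 0.05 in limma 9 were lower and 0 higher, against 1806 and 1184 of all 14711 genes. In 5 of the 18 every SHR array lay below every WKY array, against 4.11% of all genes. The summed linear level of these markers, in units of the array's 75th percentile, ran from 16.1 to 42.2 in SHR and from 31.5 to 49.1 in WKY, and 0 of them were at background on all arrays. Lyz2 was the largest part of this sum, with mean log2 values of 4.22 in SHR and 4.27 in WKY. It differed by −0.05 (limma adjusted p = 0.945) and was 3.03 on SHR 3-3, against 4.32 to 4.73 on the other SHR arrays. The part of macrophage content in the lower interferon-stimulated genes was not tested.

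By their medians, the remaining lists moved less. Plasmacytoid dendritic cell markers had a median of 0.13 with 0 of 7 called (1 lower and 1 higher at an unadjusted p below 0.05 in limma) and summed to 8.14 to 11.7 in SHR and 6.62 to 8.30 in WKY. T and NK cell markers had 1 of 18 lower, the chemokine Ccl5 (−0.53), median −0.04, with sums of 5.64 to 7.61 and 6.81 to 8.24. Of these 18, 11 were negative, and 4 were lower and 0 higher at an unadjusted p below 0.05 in limma. In 2 of them every SHR array lay below every WKY array. B and plasma cell markers had 0 of 9 called (1 lower and 0 higher at an unadjusted p below 0.05 in limma) and a median of −0.11, with 7 negative. Their sums of 85.2 to 123 and 72.4 to 91.4 were carried by Xbp1, with mean log2 values of 6.55 in SHR and 6.33 in WKY. Neutrophil and mast cell markers had 1 of 12 lower, the mast cell protease Cpa3 (−0.58), median −0.20, with sums of 1.74 to 1.84 and 1.78 to 2.15. Of these 12, 11 (91.7%) were negative, and 1 was lower and 0 higher at an unadjusted p below 0.05 in limma. Endothelial markers had 1 of 9 higher, Plvap (0.60), median 0.05, with sums of 8.07 to 11.7 and 7.06 to 9.76. Of these 9, 3 were negative, and 0 were lower and 2 higher at an unadjusted p below 0.05 in limma. Ccl5 did not pass without SHR 3-1, 3-3 or 3-4 or WKY 1-3, 1-5 or 4-1 (limma adjusted p up to 0.0995), and Cpa3 did not without SHR 2-3 or WKY 1-2, 1-3 or 4-1 (0.0841). Plvap passed only without SHR 3-1 or WKY 1-5 among the runs with 1 array left out (up to 0.109). Ccl5 also failed with normexp (0.0866), quantile scaling (0.0532), median scaling (0.0517) and the authors' values (0.0534), and Cpa3 with normexp, at −0.27 (0.0977). Of 13 acinar and duct markers 1 was lower, the secreted mucin-like Smgc at −4.10 (2.3e-05), and the median was 0.06, with sums of 364 to 692 and 460 to 490. Of these 13, 6 were negative, and 2 were lower and 3 higher at an unadjusted p below 0.05 in limma. SHR 3-3 stood apart in these duct markers: Egf was 0.73 there against 4.39 to 5.86 on the other SHR arrays, Klk1c2 4.76 against 7.16 to 7.82 and Krt19 −1.96 against −0.69 to −0.58. The labelled gland's own markers were thus measured in both strains, and the part of any of these cell types in the results was not tested.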

How the data were processed

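Per the labels' protocols, Trizol RNA of 5 SHR and 5 WKY glands was amplified and labelled with Cy3. Per the file headers, Agilent Feature Extraction 11.0.1.1 made the deposited processed signal, a background-corrected linear intensity. The authors' deposited table holds log2 values with a median of 7.19 on every array; its making is not stated in the sources used here.

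From the log2 intensities of an array the 75th percentile over its non-control spots was subtracted. Outlier spots were set to missing, spots of a probe were averaged, and probes were kept (29266 of 30367) if clearly above background on 5 or more of the 10 arrays. Symbols came from RefSeq accessions of assembly GRCr8, the brightest probe stood for a gene, and limma 3.58.1 (R 4.3.3; lmFit, eBayes) compared strains over 14711 genes, with Benjamini-Hochberg adjustment. The fit was tested on simulated data. Motifs and plots used Python 3.11.15, pandas 2.3.3 and matplotlib 3.10.9.

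The members and lists were chosen with earlier results of these data known. Every member is accounted for; other lists name up to 6 genes past the threshold and marker lists up to 3, and 1 gene counted in a list is not reported here by name. Titles name separate samples, and p-values measure the spread between these. Alternatives were normexp (offset 50, on the median signal in place of the planned mean) with quantile normalisation, quantile or median scaling, the authors' values, other filters and probe rules, array weights, slide and title-number blocks, and leaving out each array. The number of arrays limits precision.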

Additional observations from a re-analysis of the deposited data

Results flagged for a closer look

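In 7 of 68 groups of 5 arrays, 1 array lay far from the others by Dixon's criterion (critical value 0.71), which chance gives in about 1 of 20 groups, 3.40 here. Of the 7, 5 were on SHR 3-3. Irf7 measured −1.47 there, with the next SHR array at 0.26. Isg15 measured −2.42 against −1.61 for the next, and Ifit2 −4.06 against −2.88. Ifit3 measured −1.70 against −1.32, and Parp9 −3.78 against −2.69. On the WKY side Irf1 on WKY 4-1 was high, 1.27 against 1.06, and Oas3 on WKY 4-2 was low, −3.49 against −2.69. These are log2 values relative to the array's 75th percentile, and what sets these arrays apart was not tested.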

How the results depend on the processing

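The count of 12 lower members was 12 with quantile or median scaling, the authors' values, either other filter, the mean of all probes, outlier spots kept, intensity-trended variances or the percentile over probes (an alternative added after seeing the data). It was 11 with normexp, which lost Gbp2, and 13 with array weights, where 595 of all genes were lower against 419 in the main fit. The slide as a block gave 0 and the slide as a random block 23 (consensus correlation −0.19), while 2101 of all genes were then lower. The title number as a random block gave 17 (−0.16), with 1110 of all genes lower. Each first title number occurs in 1 strain only, and strain and slide are largely confounded. A negative correlation within such blocks makes the SE of the strain difference smaller. The counts of 23 and 17 are therefore not stricter checks of the main count. The count ran from 7 to 13 with 1 array left out, with 8 without WKY 4-1 and 9 without WKY 4-2. In these runs the genes called lower over all genes ran from 218 to 512. On slide 2 alone, 24 members were below every WKY array and 2 above, against 22.5% and 31.5% of all genes; with 1 array against 3 these shares cannot be set beside the 14 of all arrays. The median difference of the members stayed negative in these settings, was −0.31 with normexp and otherwise ran from −0.48 to −0.35. Sizes of some called members shrank with normexp: Ifi44l from −0.87 to −0.41, Oas1a from −0.90 to −0.44 and Rsad2 from −1.29 to −0.84. Others moved little, such as Ifi27l2b (−1.62 to −1.61) and Mx1 (−0.78 to −0.74). The split of all genes, 419 lower and 222 higher, became 358 and 331 with normexp, 433 and 418 with quantile scaling, 386 and 336 with median scaling and 432 and 423 with the authors' values, while 0 members were higher in each of them (limma; 0, 2, 1 and 2 at an unadjusted p below 0.05).

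Some differences that had not passed changed sign, Irf9 (−0.77) being the largest of them. With normexp, Ifit1 was 0.00, Mx2 −0.07, Dtx3l 0.03 and Ifi35 0.05, and the change of Ifi44 minus that of Ifi44l was −0.14. Mx2 was −0.09 and Dtx3l 0.03 with quantile scaling and with the authors' values, and Ifi35 was 0.01 in these and with median scaling. Array weights gave Mx2 −0.07 and Dtx3l 0.02. With the slide as a block, and on slide 2 alone, Irf9 was 0.20, Ifit1 −0.70, Oasl 0.09, Mx2 −0.14 and Dtx3l 0.13, and on slide 2 alone Ifit3 minus Ifit1 was 0.57. With 1 array left out, Ifit1 ran from −0.24 to 0.19, Mx2 from −0.16 to 0.10 and Dtx3l from −0.13 to 0.01. The cause of these shifts was not tested. Of the 12 neighbouring pairs, 4 passed with normexp, quantile scaling or the authors' values and 6 with the mean of all probes. No paired analysis was possible because the strains share no replicate label. Of the ISRE core, the version with 1 further A was also in 18 of 26 member windows and in 3.92% of all windows.

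Ifit1 was well above background on 3 of 5 arrays per strain, so its difference is the least certain of the members by signal.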

Other observations

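The members varied more between SHR rats than between WKY rats in 24 of 34 genes, with a median SD of 0.22 in SHR and 0.19 in WKY. Over all 14711 genes SHR had the larger SD in 10028, with medians of 0.20 and 0.15. The wider spread of SHR arrays was thus also present over all genes.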
